A study of Mus musculus with 12 samples.

Results

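The genes described here move iron across the intestinal epithelium, store it or take it up from the blood: Cybrd1, Slc11a2, Heph, Slc40a1, Fth1, Ftl1 and Tfrc. They were taken by name from the deposited count table, with earlier results of these data known, and make up 7 of its 35275 genes. RNA of whole ileum, the last stretch of the small intestine, was sequenced from 14-day-old C57BL/6 mouse pups. 6 pups were born to 3 dams that were restrained in a ventilated tube, 2 h each day, between gestational days 7 and 19, and 6 to 3 control dams that stayed in their home cages without disturbance. Each dam gave 1 male and 1 female pup, so there were 4 groups of 3 libraries: stressed males, control males, stressed females and control females. No genotype or drug was varied, and littermates share a dam and a cage, so the dam is the independent unit for the effect of stress.

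In the absorptive cell, dietary ferric iron is reduced at the brush border by Cybrd1 (duodenal cytochrome b) and carried in by Slc11a2 (the divalent metal transporter DMT1). It is held in ferritin, a shell of heavy chains (Fth1) and light chains (Ftl1), or leaves for the blood through Slc40a1 (ferroportin), the only known iron exporter of mammalian cells, with Heph (hephaestin) oxidising it on the way out. Tfrc (transferrin receptor) brings transferrin-bound iron into cells from the blood side. Iron regulatory proteins bind a hairpin, the iron-responsive element, in several of these messages: in a 5′ untranslated region they block translation, and in a 3′ untranslated region they protect the message from decay. Absorption of iron is concentrated in the duodenum, so the ileum is a segment where the reductase is known to be low.

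The hairpins are shown because they are the sequence feature by which these messages are known to be controlled together, and because counts of RNA do not see the step that the 5′ hairpins control. The letters searched were CNNNNNCAGTGN, an unpaired C, a 5-base arm and a 6-base loop, followed by a 5-base arm that pairs with the first (G with U allowed). The sites below come from GENCODE M21 transcripts (GRCm38), in the sense of the message, with U written as t and the loop in capitals.
Slc40a1 5′ UTR, 1:45925464-45925493, minus strand: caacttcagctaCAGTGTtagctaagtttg
Fth1 5′ UTR, 19:9982732-9982761, plus strand: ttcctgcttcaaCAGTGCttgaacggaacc
Ftl1 5′ UTR, 7:45459778-45459807, minus strand: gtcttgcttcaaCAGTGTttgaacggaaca
Tfrc 3′ UTR, 16:32631219-32631248, plus strand: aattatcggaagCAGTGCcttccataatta
Tfrc 3′ UTR, 16:32631598-32631627, plus strand: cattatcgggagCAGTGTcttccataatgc
Tfrc 3′ UTR, 16:32631663-32631692, plus strand: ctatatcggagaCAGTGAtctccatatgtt
Tfrc 3′ UTR, 16:32631710-32631739, plus strand: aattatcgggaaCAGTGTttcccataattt
Slc11a2 3′ UTR, 15:100395152-100395181, minus strand: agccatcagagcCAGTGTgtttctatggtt

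In Slc40a1, Fth1, Ftl1 and Tfrc all 5 pairs of the stem formed, and Tfrc held 4 such sites. The Slc11a2 site formed 4 of 5 pairs and lies in transcript Slc11a2-205 alone of the transcripts searched, whereas the counts pool all transcripts of a gene. Heph had a match of 4 of 5 pairs inside its coding sequence, and Cybrd1 had none. Among the longest transcripts of 21877 protein-coding genes, 271 (1.24%) held a match with 5 of 5 pairs and 2205 (10.1%) one with at least 4, and 1 gene held 4 or more sites with 5 of 5. For the genes described here every protein-coding transcript was searched, so these shares do not rest on the same search. A match is a string of letters and was not tested as a binding site.

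The libraries held 16423523 to 22975526 counts each. Both pups of control dam 3 carried more RNA of the upper small intestine: the 8 markers of that list summed to 6926 CPM (counts scaled to library size, with TMM factors) in control male 3 and 2585 in control female 3, against 175 to 534 in the other 10 libraries. Most of these sums was Lct (5240 and 2318 CPM). Fabp1 (1404 and 168 CPM), Gata4 (135 and 51.0), Adh6a, Ctrb1 and Clps were also highest in those pups. Onecut2 was at 19.4 CPM in control male 3. In control female 3 it was at 0.609, inside the 0.198 to 1.52 of the other 10 libraries. Pdx1 was nearly absent everywhere (mean 0.0781 CPM). The 8 enterocyte markers of the pups of control dam 3 summed to 11285 and 8728 CPM, against 5390.3 to 6949 elsewhere. The 8 pancreatic markers, which share Ctrb1 and Clps with the first list, summed to 61.6 and 46.1 CPM in those pups, against 6.15 to 20.5 CPM, and 5 of them (Cpa1, Cela2a, Pnlip, Prss2 and Amy2a5) were at 0 in every library. No enterocyte or suckling-ileum marker was at 0 in any library, but control male 3 had little of 3 ileal markers: Fabp6 was at 0.716 CPM there and at 29.9 to 608 elsewhere, Slc10a2 at 0.195 and at 1.67 to 6.43, and Slc6a14 at 0.130 and at 6.37 to 108. Dab2 (468 CPM) and Lgmn (1389 CPM) were also lowest in that library. Cubn (886 CPM, against 416 to 1281 elsewhere) and Amn (290 CPM, against 153 to 420) lay inside the range of the others. Red cell markers summed to 149.9 to 261 CPM in stressed pups and 127 to 237 CPM in control pups, and liver markers to 50.6 to 132 and 49.2 to 101 CPM. Most of the liver sum was Ttr (mean 65.1 CPM), while Alb (0.103), Apoa2 (0.195) and Hamp (0.0285) were nearly absent. Stressed male 1 and stressed male 3 were low in short transcripts: the 926 genes under 1000 bases had a median log2 deviation of -0.30 and -0.46 from the 12-library mean, and mitochondrial RNA took 2.18% and 1.16% of their counts against 3.01 to 4.59% in the others. Those libraries and control male 1 also held the most reads of the gene Yam1 (1.39%, 4.13% and 1.00%, against 0.171 to 0.4998%). Because these are pieces of whole tissue, fewer cells of a type and less RNA per cell cannot be told apart.

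Per length, the ferritin chains stood far above the transporters. Mean FPKM (the deposited levels, fragments scaled to gene length and library size) over the 12 libraries was 2642 ± 862 for Ftl1, the 8th highest of all genes, and 1527 ± 417 for Fth1, the 20th (SD, n = 12). Slc40a1 followed at 225 ± 30.5, then Slc11a2 at 79.2 ± 10.4, Heph at 67 ± 11.5, Tfrc at 24.4 ± 5.73 and Cybrd1 at 5.06 ± 2.15 FPKM. Slc11a2 and Heph did not separate: Slc11a2 was the higher in 8 of 12 libraries. Ftl1 was above Fth1 in 11 of 12 libraries, and every other neighbour in this order kept its place in all 12. The exporter message thus ran 2.26 to 3.71 times that of the importer in FPKM, and the reductase was the lowest of the 7 in each library.

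**Figure D1:**
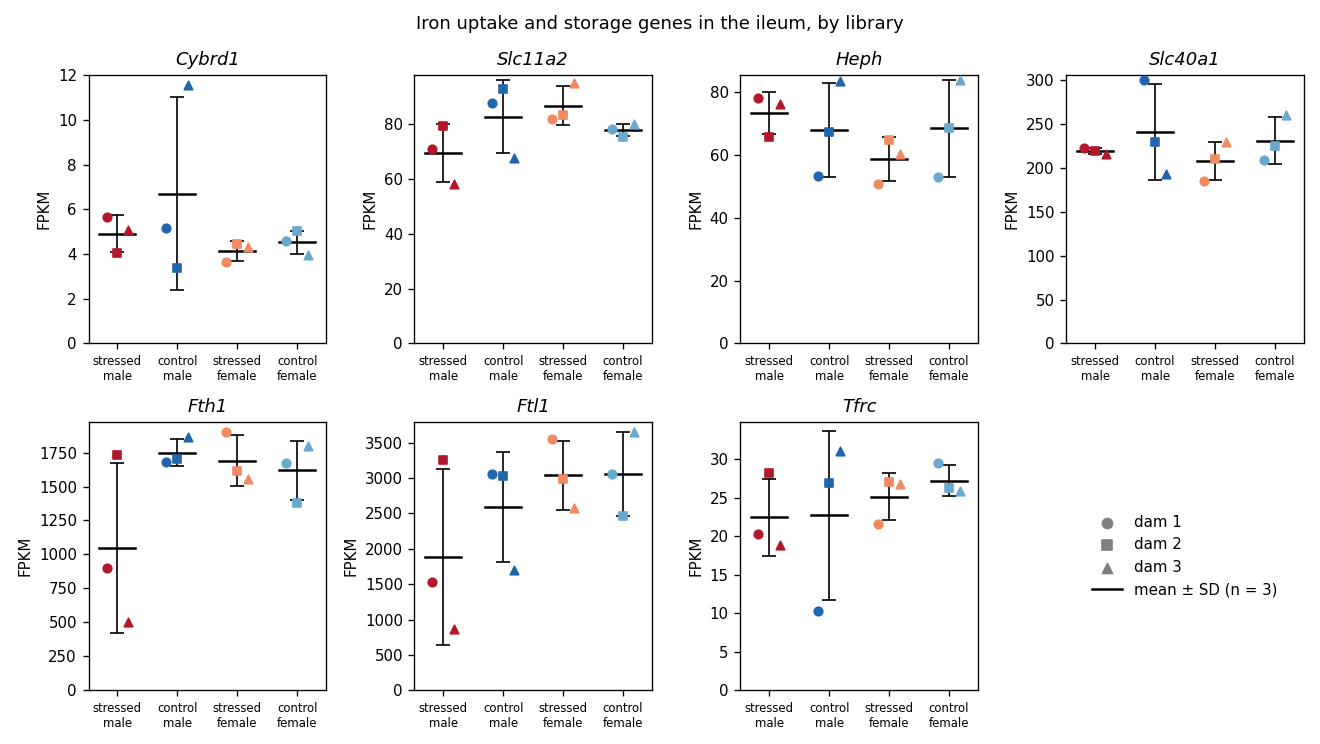
Deposited FPKM (vertical axis, linear from 0, a scale of its own for each gene) of the 7 genes in stressed males, control males, stressed females and control females; each point is a library, its shape gives the dam, and bars are mean ± SD (n = 3). The Fth1 points of stressed males reach from 506 to 1735 FPKM, while those of the control males lie between 1680.3 and 1865 FPKM.

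How far each message varied between pups differed as much as its level. Slc11a2 had the smallest coefficient of variation of its TMM CPM over the 12 libraries, 11.4%, and Slc40a1 had 14.6%, both under the median of 16.4% of the 10096 genes with at least 10 CPM. Heph (22.03%), Tfrc (25.1%), Fth1 (28.3%) and Ftl1 (31.3%) varied more than that median. Cybrd1, with 51.0%, varied more than 97.0% of those genes.

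**Figure D2:**
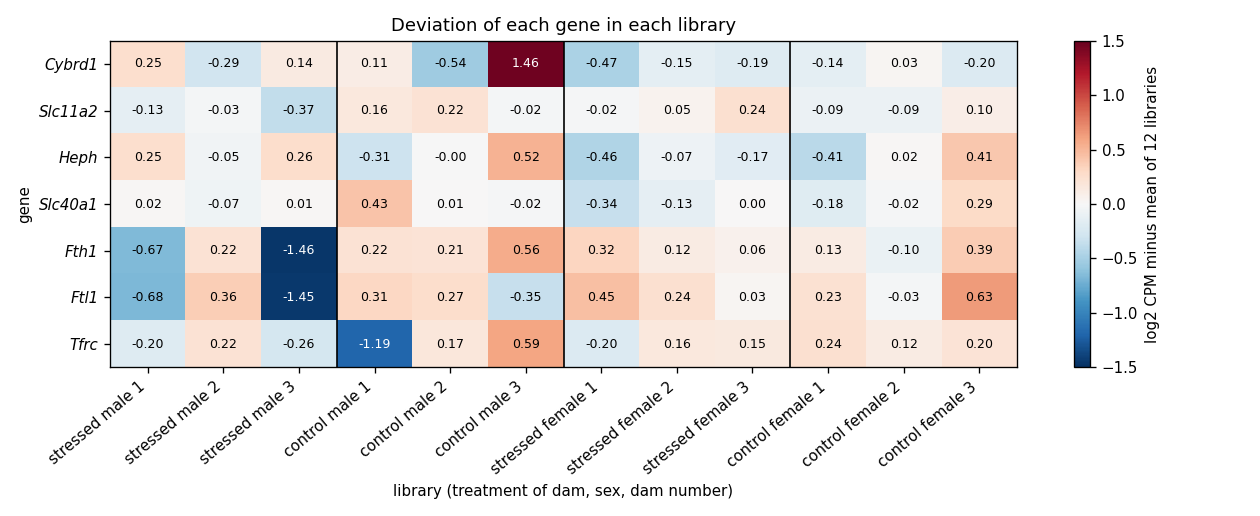
Difference of each gene's log2 CPM from its own mean over the 12 libraries (colour), with genes in rows and libraries in columns. The strongest colours are Cybrd1 in control male 3 (1.46), Fth1 and Ftl1 in stressed male 3 (-1.46 and -1.45) and Tfrc in control male 1 (-1.19).

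None of the 7 messages passed the test for an effect of prenatal stress, and neither did any other gene. With littermates summed, so that 3 stressed dams were set against 3 control dams, the edgeR quasi-likelihood test called 0 of 16749 genes at an adjusted p of 0.05 (0%), and 228 had an unadjusted p below 0.05 (1.36%). All 7 genes had a log2 fold change below 0 over dams, where 48.7% of all genes tested did. Their median was -0.19, and that of all genes 0.00474. Of the enterocyte markers 8 of 8 were also below 0 over dams (median -0.16), and of the macrophage markers 8 of 9. Of the suckling-ileum markers 3 of 7 were below 0, and of the red cell markers 3 of 8. Without both pups of control dam 3, 5 of the 7 were below 0 over dams, against 48.4% of all genes, and their median was -0.07. In males 0 of 16102 genes were called (0%) and 6 of the 7 had a value below 0, against 48.3% of all genes, or 4 of the 7 against 47.9% without control dam 3. In females 0 genes were called (0%), 48 (0.298%) had an unadjusted p below 0.05 and 5 of the 7 were below 0, against 51.5% of all genes. DESeq2 likewise called 0 genes in each of these 3 comparisons. The comparisons over dams and by sex share libraries, so these counts do not add to each other. Of the 7 in males, 1 (Fth1) had an unadjusted p below 0.05, as did 1028 (6.38%) of all genes; over dams and in females none of the 7 had.

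**Figure D3:**
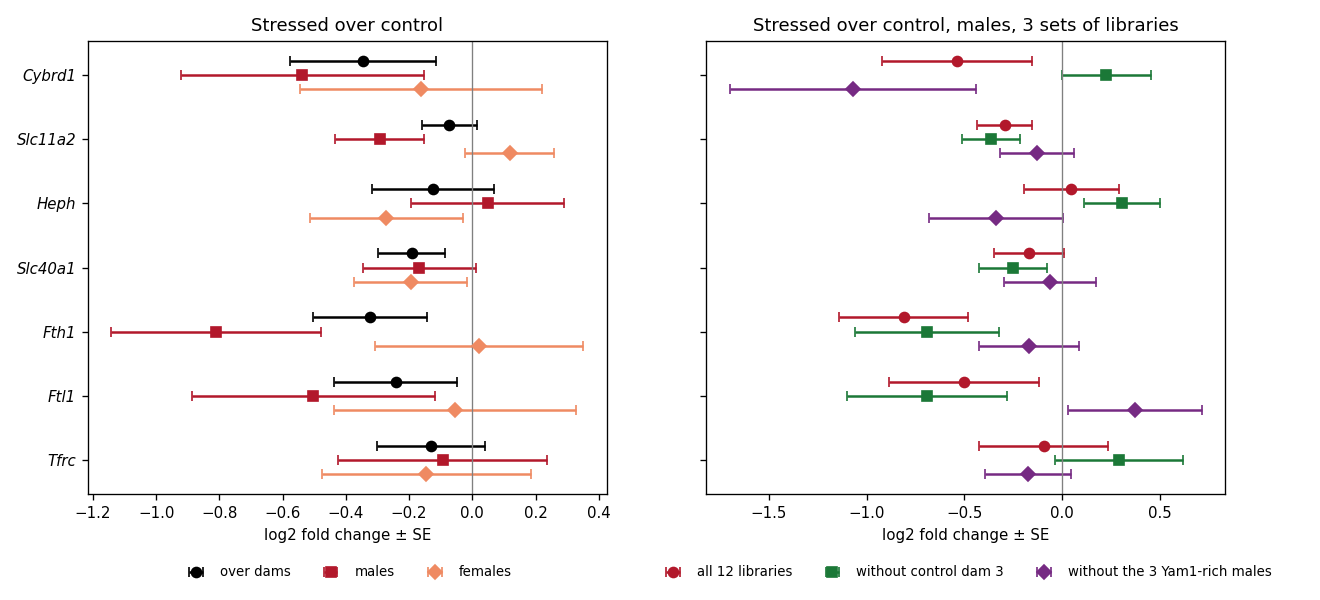
Log2 fold change of stressed over control pups ± SE from edgeR (horizontal axis) for each gene, at left over dams, in males and in females, and at right in males with all 12 libraries, without both pups of control dam 3 and without the 3 males rich in Yam1 reads (2 stressed and 1 control). Most bars come close to 0 or cross it, at left the values of Slc11a2, Heph and Fth1 lie on both sides of 0 between the sexes, and at right those of Cybrd1, Heph, Ftl1 and Tfrc do so between sets of libraries.

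The reductase Cybrd1 was low in every group and high in a single pup. The gene (ENSMUSG00000027015, GRCm38 2:71117923-71142926, plus strand) had at least 356 counts in every library. Its TMM CPM were 30.5, 20.9 and 28.1 in stressed males 1 to 3, against 27.6, 17.6 and 70.4 in control males 1 to 3. In females they were 18.4, 23.1 and 22.4 in the stressed pups, against 23.2, 26.1 and 22.2 in the controls. Control male 3 was the highest library, the next being stressed male 1 at 30.5 CPM, and the stressed and control groups overlapped in both sexes. Summed over littermates the values were 23.7, 22.3 and 24.7 CPM for stressed dams and 25.3, 22.3 and 42.3 CPM for control dams, a log2 fold change of -0.35 ± 0.23 (SE; edgeR adjusted p = 0.9999). Without control dam 3 it was -0.01 ± 0.10. In males the value was -0.54 ± 0.38 with all libraries, and it turned to 0.23 ± 0.23 without control dam 3. Control male 3 is also the library with the most RNA of the upper small intestine and the lowest sum of the suckling-ileum markers (3034 CPM over 7 genes, against 3923 to 6228 in the others), although Cubn and Amn were not low there. The part of those markers in the Cybrd1 level was not tested beyond leaving the dam out. Its sister, control female 3, had the second highest marker sum but a Cybrd1 level of 22.2 CPM, inside the range of the other females.

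The importer Slc11a2 was the steadiest of the 7. It lies at 15:100387898-100425072 on the minus strand (ENSMUSG00000023030). Stressed males had 316, 341 and 268 CPM, against 388, 403 and 341 CPM in control males. Female levels were 343, 359 and 409 CPM in the stressed pups, against 326, 326 and 371 CPM in the controls. The male groups touched without overlapping (340.5 in stressed male 2 and 341.2 in control male 3), with stressed males lower, and the female groups overlapped, as did those of the other 6 genes in females, where 895 genes (5.56%) separated in either direction. In males 475 of all genes tested (2.95%) lay lower in that way. In deposited FPKM, which is not rescaled for composition, control male 3 (67.7) lay below stressed male 1 (70.9) and stressed male 2 (79.2), so the male groups overlapped on that scale. The male log2 fold change was -0.29 ± 0.14 (edgeR adjusted p = 0.752) and the female one 0.12 ± 0.14 (adjusted p = 1). The test of the difference between them gave -0.41 ± 0.20 (adjusted p = 0.999). Over dams the sums were 326, 354.0 and 348 CPM for stressed dams and 355, 369 and 358 CPM for control dams, again without overlap, and the log2 fold change was -0.07 ± 0.09. The gap was small, between 354.0 in stressed dam 2 and 355.1 in control dam 1. In FPKM both pups of control dam 3 (67.7 and 79.99) lay below the stressed dam 2 pup of the same sex (79.2 and 83.4). The separation over dams thus depended on the scale. Such a separation over dams in the lower direction was seen in 533 genes (3.18%), among them Slc11a2 and Slc40a1.

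The exporter Slc40a1 had lower sums in stressed dams, by a margin that did not pass the test. Its gene is ENSMUSG00000025993, at 1:45908068-45926523 on the minus strand. Stressed males had 886, 837 and 885 CPM, against 1182, 883 and 864 CPM in control males. Stressed females had 690.2, 802 and 876 CPM, against 773, 863 and 1074 CPM in control females. In both sexes the groups overlapped, and control male 1 and control female 3 were the highest libraries. Summed by dam the levels were 770.5, 828 and 877 CPM after stress and 956, 886 and 984 CPM in controls, which did not overlap. The log2 fold change over dams was -0.19 ± 0.11 (edgeR adjusted p = 0.9999), with -0.17 ± 0.18 in males and -0.19 ± 0.18 in females. The male value was -0.0075 without control male 1 and the female one -0.05 without control female 3. Without both pups of control dam 3 the value over dams was -0.15 ± 0.11. Leaving out each dam in turn gave -0.24 to -0.14, so the sign did not rest on a single litter, but the difference did not pass the test in any of these fits.

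The ferroxidase Heph spanned a wider range in control pups than in stressed pups. It is X-linked (ENSMUSG00000031209, X:96455359-96574485, plus strand). Stressed males had 373, 302 and 377 CPM, against 253, 313 and 451 CPM in control males. Stressed females had 229, 298 and 278 CPM, against 237, 318 and 416 CPM in control females. In both sexes control dam 1 gave the lowest and control dam 3 the highest control value. Over dams the sums were 292, 304 and 319 CPM after stress, inside the control span of 246, 321 and 430.3 CPM. The log2 fold change over dams was -0.12 ± 0.19 and turned to 0.11 ± 0.13 without control dam 3. It was 0.05 ± 0.24 in males and -0.27 ± 0.24 in females, and the difference between these was 0.32 ± 0.34.

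Fth1, the ferritin heavy chain with ferroxidase activity, gave the smallest unadjusted p of the 7 in males. The deposited coordinates are 19:9982703-9985092, plus strand (ENSMUSG00000024661), with at least 7194 counts in each library. Stressed males had 789.7, 1463 and 457 CPM, against 1458, 1448 and 1845 CPM in control males. Stressed females had 1564, 1365 and 1309.8 CPM, against 1370.3, 1168 and 1637 CPM in control females. Stressed males 1 and 3 were the lowest of all 12 libraries, and stressed male 2 lay above control male 1 and control male 2, so the male groups overlapped. In males the log2 fold change was -0.81 ± 0.33 (edgeR adjusted p = 0.752), in females 0.02 ± 0.33 (adjusted p = 1), and the difference was -0.83 ± 0.47 (adjusted p = 0.999). Over dams the sums were 1189.5, 1427 and 948 CPM after stress and 1417, 1325 and 1722 CPM in controls, with a log2 fold change of -0.32 ± 0.18 (adjusted p = 0.9999). The authors' deposited table gives Fth1 a log2 fold change of -0.51 in males (adjusted p = 0.99993) and -0.23 over both sexes (adjusted p = 0.9996), and it calls 0 of the 7 genes in any of its 3 comparisons.

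Ftl1, the light chain that helps to nucleate the iron core, had the same low libraries. The gene is ENSMUSG00000050708, at 7:45457944-45459884 on the minus strand. Stressed males had 1492, 3074 and 872 CPM, against 2959, 2874 and 1872 CPM in control males. Stressed females had 3259, 2814 and 2436 CPM, against 2797, 2331 and 3707 CPM in control females. Stressed males 1 and 3 were again the lowest, followed by control male 3, and the groups overlapped in both sexes. The male log2 fold change was -0.50 ± 0.38, the female one -0.05 ± 0.38, and the value over dams was -0.24 ± 0.19. In males it ran from -1.14 without stressed male 2 to -0.17 without stressed male 3, and over dams from -0.43 without stressed dam 2 to -0.07 without stressed dam 3. Together the 2 chains took 0.226% of the counts of stressed male 1 and 0.127% of those of stressed male 3, against 0.325 to 0.509% in the other 10 libraries. Near copies of the ferritin genes held almost no reads: Ftl2 had 0 to 5 counts per library, Fth-ps2 0 to 3, and Ftmt and Fthl17 were at 0.

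Both ferritin messages are short (866 bases for Fth1 and 968 for Ftl1), and stressed males 1 and 3 were low in short transcripts in general. Fth1 deviated from its 12-library mean by -0.67 on the log2 scale in stressed male 1 and -1.46 in stressed male 3. The 596 genes within 0.8 to 1.2 times its length had median deviations of -0.27 and -0.42 in those libraries. Of these genes 15.3% lay below Fth1 in stressed male 1 and 2.68% in stressed male 3. Ftl1 deviated by -0.68 and -1.45, and 12.4% and 1.89% of 742 genes of like length lay below it. In those libraries the ferritin deviations thus had the sign of the like-length median and were further from 0. Control male 1 went the other way, with Fth1 at 0.22 (median -0.13) and Ftl1 at 0.31 (median -0.09). So did Fth1 in control male 3 (0.56, median -0.08), but not Ftl1 there (-0.35, median -0.09). In every other library the signs were the same. The cause was not tested. Without the 3 males rich in Yam1 reads the male log2 fold change was -0.17 ± 0.26 for Fth1 and 0.37 ± 0.34 for Ftl1; this removes the 2 lowest libraries of both chains, and the 1 stressed male left is assumed to vary like the other groups. Leaving out stressed male 2 alone gave -1.36 for Fth1 (adjusted p = 0.0671), and leaving out stressed male 3 gave -0.49. With each library corrected for its trend with gene length, an alternative chosen after the data were seen, Fth1 in males was -0.76 ± 0.23 (adjusted p = 0.796).

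**Figure D4:**
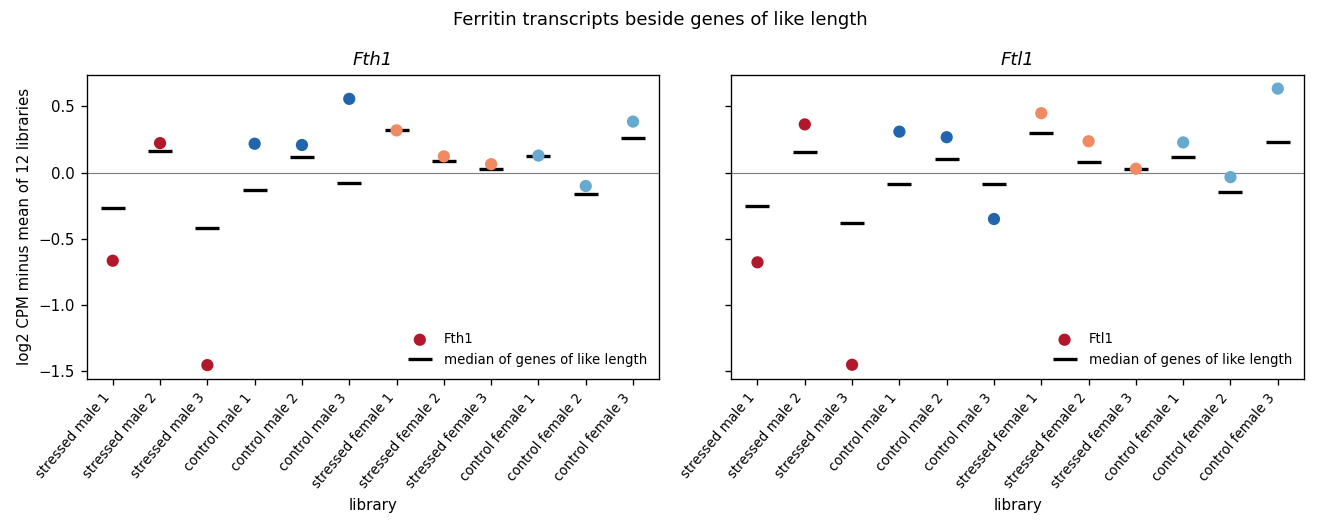
Difference of log2 CPM from the 12-library mean for Fth1 (left) and Ftl1 (right) in each library (points), with the median of genes of 0.8 to 1.2 times the same length (black bars). In stressed male 1 and stressed male 3 both points and bars lie below 0, with the Fth1 points at -0.67 and -1.46 and its bars at -0.27 and -0.42.

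The ratio of light to heavy chain message lay within a narrow span in all libraries but 1. Ftl1 over Fth1 in FPKM was 1.69, 1.88 and 1.71 in stressed males, against 1.82, 1.78 and 0.908 in control males. It was 1.86, 1.84 and 1.66 in stressed females, against 1.83, 1.79 and 2.03 in control females. The low libraries of both chains, stressed males 1 and 3, kept the ratio of the others. Control male 3 was apart: in FPKM its Fth1 (1865) was below that of stressed female 1 (1904) alone, and its Ftl1 (1693) was the third lowest. Across the 12 libraries the log2 CPM of the 2 chains had a Pearson r of 0.864, and without control dam 3 of 0.997 over 10 libraries; both chains share the length trend of each library, so this is a description.

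Tfrc, the receptor for transferrin and a gene known to be high in dividing cells, was low in a single control. It lies at 16:32608920-32632794 on the plus strand (ENSMUSG00000022797). Stressed males had 100.4, 134 and 96.2 CPM, against 50.5, 129 and 173 CPM in control males. Stressed females had 100.1, 129 and 127 CPM, against 136, 125 and 133 CPM in control females. Control male 1 was the lowest and control male 3 the highest library, so the stressed males lay inside the control span. Over dams the sums were 98.9, 133 and 114 CPM after stress and 99.8, 129 and 149 CPM in controls, with a log2 fold change of -0.13 ± 0.17 that became 0.01 ± 0.16 without control dam 3. Control male 1 deviated by -1.19 in Tfrc, and 1.48% of 3239 genes of like length lay below it there. The 8 markers of dividing cells summed to 236 CPM in that library, where their median log2 deviation was -0.89, and to 320.1 to 481 CPM in the other 11. The highest sums were in stressed male 3 (481 CPM) and stressed male 1 (477 CPM), where Tfrc was at 96.2 and 100.4 CPM. The median deviations of the markers there were -0.15 and -0.17. In control male 1 the 9 macrophage markers summed to 213 CPM, against 246 to 404 CPM in the rest. Their part in the Tfrc level was not tested.

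Males and females did not differ in any of the 7 messages by the test, in a comparison that called 8 of all genes (0.0497%) and gave 1929 (12%) an unadjusted p below 0.05; 4 of the 7 were lower in males, against 50.6% of all genes. Cybrd1 averaged 32.5 ± 19.2 CPM in males and 22.6 ± 2.49 CPM in females (SD, n = 6 each), with a log2 fold change of 0.50 ± 0.27 (edgeR adjusted p = 0.429). Ftl1 averaged 2191 ± 913 CPM in males and 2891 ± 517 CPM in females, with a log2 fold change of -0.42 ± 0.27 (adjusted p = 0.473). Both sets overlapped, as did those of the other 5 genes, where 41 of all genes (0.255%) did not. The log2 fold changes of those 5 ran from -0.23 for Fth1 to 0.23 for Heph. Among males, control male 3 stood apart for Cybrd1. Ftl1 was low in stressed male 3 (872 CPM), stressed male 1 (1492 CPM) and control male 3 (1872 CPM). The test of the difference between the male and the female effect of stress called 0 of all genes (0%), with 346 (2.15%) at an unadjusted p below 0.05, and 4 of the 7 genes had a value below 0 there, against 50% of all genes.

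The other genes of iron handling, in 5 lists, held 0 called genes in any comparison. The lists held 75 gene symbols, with older and newer names of some genes among them. Of these 71 are in the table and 65 could be tested over dams. Over dams 41 of the 65 were below 0 and 24 above it, where 48.7% of all genes were below 0, with a median of -0.05 beside 0.00474 for all genes. Without control dam 3, 34 of the 65 were below 0 and 31 above it, with a median of -0.0033. Among transport and reduction genes 7 of 13 were below 0. Their most abundant member was Mfi2 (melanotransferrin, an iron-binding protein of the cell surface), with 1086 ± 148 FPKM over the 12 libraries, the 31st of all genes. Mfi2 had 4279.7 to 4464 CPM in stressed dams and 4315 to 5145 CPM in control dams, a log2 fold change of -0.10 ± 0.13. Slc39a8 (ZIP8, a metal importer) was at -0.04 ± 0.10 (0.0054 without control dam 3) and Slc25a28 (a mitochondrial iron importer) at 0.10 ± 0.09, neither past the test. Lcn2, which binds iron-laden siderophores, was scarce, at 0.989, 1.36 and 0.613 CPM in stressed dams and 1.32, 1.496 and 3.18 CPM in control dams; its log2 fold change of -1.0015 ± 0.43 (adjusted p = 0.9999) was -0.49 ± 0.33 without control dam 3.

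Of the genes that sense or control iron 11 of 17 were below 0 over dams. The lowest value, named after the values were seen, was that of Tmprss6 (a protease that restrains hepcidin), at -0.65 ± 0.63 with 0.117 to 0.625 CPM over the 6 dams, and it was 0.13 ± 0.55 without control dam 3. Ireb2 (an iron regulatory protein that binds iron-responsive elements) was at -0.05 ± 0.10, Fbxl5 (which marks that protein for degradation when iron is plentiful) at -0.11 ± 0.08, Furin (a protease) at 0.07 ± 0.17 and Bmp2 (a ligand that induces hepcidin in the liver) at -0.25 ± 0.12 (-0.14 ± 0.10 without control dam 3). Hamp, which encodes hepcidin, had at most 0.0822 CPM in any library. Among storage genes and iron chaperones 5 of 7 were below 0; Ncoa4 (the receptor that delivers ferritin to lysosomes) was at -0.11 ± 0.15, or 0.08 ± 0.10 without control dam 3, the chaperone Pcbp1 at -0.08 ± 0.09 and Glrx3 at -0.06 ± 0.08. Iron-sulphur cluster genes had 7 of 12 below 0, with Isca1 at -0.08 ± 0.11 (-0.05 without control dam 3), Abcb10 at -0.16 ± 0.11 (-0.09 without that dam) and Hscb at 0.10 ± 0.10.

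Of the haem genes 11 of 16 were below 0 over dams. Slc46a1, known as a folate transporter that can also carry haem, had 74.5, 77.2 and 79.9 CPM in stressed dams, against 92.4, 85.2 and 144 CPM in control dams. The groups did not overlap, as in 533 of all genes tested (3.18%) that lay lower over dams in that way. Control dam 3 stood highest, and the log2 fold change was -0.47 ± 0.19 (edgeR adjusted p = 0.9999), or -0.20 ± 0.09 without that dam. In males it was -0.82 ± 0.28 (adjusted p = 0.752), with 230.3 CPM in control male 3 and 59.7 to 119 CPM in the other 11 libraries, and -0.33 ± 0.19 without control dam 3. Abcg2 (an exporter of porphyrins) was at 0.08 ± 0.12 (-0.00055 without control dam 3) and Ppox (an enzyme of haem synthesis) at 0.22 ± 0.13. The highest sum of Slc46a1 was in control dam 3, as were those of Cybrd1, Heph, Slc40a1, Fth1 and Tfrc. That dam's pups held the most RNA of the upper small intestine, the male more than the female. Heph and Fth1 were highest of their sex in both pups. Cybrd1 (70.4 CPM), Slc46a1 (230.3) and Tfrc (173) peaked in the male, while his sister's 22.2, 81.4 and 133 CPM lay among the other females. Slc40a1 was high in the sister (1074 CPM) but not in him (864, with a mean of 885 over all 12 libraries). The part of the upper intestinal RNA in these sums was not tested beyond leaving the dam out.

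The genes most alike in pattern to each of the 7 were found by the Pearson r of log2 CPM over the 12 libraries, among 11330 genes with a mean of at least 5 CPM. For Cybrd1 they were Slc23a2 (r = 0.979), Pgrmc2 (0.959) and Sulf2 (0.959); Slc23a2 stood at 62.8 CPM in control male 3 and at 22.1 to 31.6 CPM elsewhere. For Slc11a2 they were Mospd1 (0.917), Ddrgk1 (0.887) and Ctns (0.884), and for Heph Gcnt4 (0.957), Slc26a2 (0.956) and Agrn (0.954). Slc40a1 was nearest to Dda1 (0.879), Snx8 (0.873) and Dennd1c (0.864). Fth1 was nearest to Cox19 (0.969), Spr (0.968) and Dctn2 (0.967), Ftl1 to Gabarap (0.984), Tmem9 (0.974) and Pfdn1 (0.974), and Tfrc to Stt3a (0.964), Uhrf1 (0.962) and Cyp4f40 (0.961). Of these 21 genes, 3 were again among the nearest without control dam 3: Mospd1 and Ctns for Slc11a2 and Stt3a for Tfrc. These likenesses describe libraries that share depth, length trend and tissue composition, and carry no test.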

How the data were processed

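RNA of ileum was sequenced from 12 pups, each a library of its own. The deposited table holds raw read counts per gene, and the deposited FPKM table holds the same counts divided by gene length and library total (checked on 240813 nonzero counts, largest relative difference 5e-12). The authors' deposited table of comparisons holds log2 fold changes, with a raw and an adjusted p-value per gene. Builds GRCm38 and mm10 and, as tools, edgeR 3.16.5, DESeq2, HTSeq 0.6.1, STAR 2.5 and TopHat are named in the submitters' processing notes; the annotation release and strand setting are not given in the sources used here. Of the gene IDs, 34490 were found in GENCODE M21.

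Tests used edgeR 4.0.16 in R 4.3.3 (TMM, filterByExpr, quasi-likelihood F test, SE from log2 fold change and F, Benjamini-Hochberg over all genes, threshold 0.05). For the effect of stress, counts of littermates were summed, 3 against 3 dams. Contrasts by sex came from 1 fit of the 4 groups over 12 pups, whose p-values treat littermates as independent. Log2 CPM used a prior count of 2. The fits were also run on simulated counts with 200 changed genes. Those counts did not model the length trend, tissue mix or shared litters of these libraries, and no result here rests on them. The 7 genes and all lists were chosen with earlier results of these data known. Named beyond the 7 were, per iron list, the 2 genes of highest mean CPM and the 2 of smallest p over dams, and per gene the 3 most alike in pattern; 1 gene that this rule takes is not reported here. Littermates are pairs by label (r of their deviations from -0.48 to 0.59 over genes). Flvcr1 and Flvcr2 were not analysed here. Alternatives were DESeq2 1.42.0, median-ratio size factors, no filter, sex as a covariate, 1 sex alone, replicate blocks, each library or dam left out, control dam 3 left out, Yam1-rich libraries left out and a length correction (loess, span 0.5).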

Additional observations from a re-analysis of the deposited data

Results flagged for a closer look

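In 32 groups of 6 libraries (8 measures), the gap between the highest or lowest library and its neighbour was set against the whole range, and 6 groups exceeded the 95% critical value of 0.625; chance gives about 1 in 20. The groups overlap and hold littermates, and the 6 rest on 4 values. Cybrd1 in control male 3 (70.4 CPM) stood apart from the other control pups (0.81 of the range) and from the other males (0.757). The Ftl1 to Fth1 ratio of FPKM in control male 3 (0.908) stood apart from the other control pups (0.776) and from the other males (0.805). Slc40a1 in control male 1 (1182 CPM) was far above the other males (0.859). Tfrc in stressed female 1 (100.1 CPM) was far below the other females (0.698).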

How the results depend on the processing

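No alternative called any of the 7 genes: 35 results were each recomputed, giving 259 values under the alternatives other than leaving out 1 library or dam, of which 20 had the opposite sign, and 378 values with 1 library or dam left out, of which 25 had. The DESeq2, size factor and filter alternatives changed no sign. With both pups of control dam 3 left out, the opposite sign was seen over dams for Heph (0.11) and Tfrc (0.013), in males for Cybrd1 (0.23) and Tfrc (0.29), in females for Ftl1 (0.14), in the difference between the sexes' effects for Cybrd1 (0.44) and Slc40a1 (-0.19), and between sexes for Slc11a2 (0.011). With the 3 Yam1-rich males left out, it was seen in males for Heph (-0.34) and Ftl1 (0.37), in the difference for Heph (-0.066), Ftl1 (0.43) and Tfrc (-0.028), and between sexes for Slc11a2 (0.0039), Fth1 (0.15) and Tfrc (0.19). With the length correction, added after seeing the data, it was seen in males for Heph (-0.073), in females for Fth1 (-0.021) and in the difference for Slc40a1 (-0.038) and Tfrc (-0.0704). The cause was not tested.

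Leaving out 1 library or dam moved values across 0 over dams for Heph (-0.30 to 0.11) and Tfrc (-0.27 to 0.013), in males for Cybrd1 (-0.91 to 0.23), Heph (-0.12 to 0.31) and Tfrc (-0.46 to 0.29), and in females for Fth1 (-0.11 to 0.15) and Ftl1 (-0.22 to 0.15). It did so in the difference for Cybrd1 (-0.73 to 0.39), Slc40a1 (-0.12 to 0.19) and Tfrc (-0.31 to 0.44), and between sexes for Tfrc (-0.33 to 0.047). Without 1 library, 0 to 1 genes were called in males (1 without stressed male 2) and 8 to 1384 between sexes (1384 without stressed male 2). Between sexes 18 genes were called by DESeq2 and 5 without the Yam1-rich males. Of the 21 genes most alike in pattern, 3 remained without control dam 3.

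Stressed and control dams share only a number: the deviations of same-numbered libraries had r from -0.41 to 0.36, below 0 for dam 3 in both sexes. With the dam number as a replicate block, 0 genes were called over dams, in males and in females, and Fth1 in males was -0.86; with the litter as a block the difference for Fth1 was -0.996 (adjusted p = 0.999) and 6 genes were called between sexes. The block changed no other call.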
